A study of Mus musculus with 8 samples.

Results

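The cytosolic ribosomal protein genes encode the protein part of the ribosome that translates nuclear messenger RNA. They were taken by name: gene symbols of the Rpl, Rplp and Rps series and Rpsa, without mitochondrial ribosomal proteins, kinases or pseudogenes. The names matched 83 of 41709 gene symbols. Of these, 80 passed the minimum of 1 TPM (reads scaled by gene length and by library) in at least 4 of 8 embryos, against 13596 genes in all. The 80 were 46 genes of the large subunit, 31 of the small subunit (together 77 main genes) and 3 paralogues, Rpl7l1, Rpl22l1 and Rps27l. The remaining 3 were the paralogues Rpl10l, Rpl39l and Rpl3l, none of which exceeded 0.451 TPM in any embryo.

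Each ribosome carries 1 copy of most of these proteins, except for the paired stalk proteins, so cells make the set in near equal numbers. The messenger RNAs are short, very abundant and start with a run of pyrimidines, the terminal oligopyrimidine (TOP) motif, through which mTOR and Larp1 set how strongly they are translated. Fast-growing embryonic tissue makes many ribosomes, and loss of 1 copy of single members causes anaemia, pigment or skeletal patterning defects.

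The samples were whole mouse embryos at embryonic day 9.5, from intercrosses of parents heterozygous for the K399A substitution in Smo, which encodes the receptor-like membrane protein through which Hedgehog ligands act. There were 4 wild-type embryos (Smo +/+, WT 1 to 4) and 4 homozygous embryos (Smo K399A/K399A, mutants 1 to 4), each its own sample. Several litters were used, and the litter of each embryo, the strain and the sex were not among the labels. The allele was in every cell of the mutants, and bulk RNA from a whole embryo cannot tell fewer cells of a type from less RNA per cell.

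Values were TPM: reads of a gene over the gene's length, scaled so that every library has the same sum. Smo itself lay between 126 and 156 TPM in all 8 embryos, and as the allele is a substitution, this level does not check the labels. Reads could be recovered as whole numbers for 97.7% of the symbols with a single merged exon length, giving libraries of 57.7 to 59.1 M reads (M, mega). All 83 members were among them. The 77 main genes had between 12158 and 188976 reads each per library, which leaves counting error well under the embryo-to-embryo spread. Some libraries stood apart. The summed level of 11 nuclear RNAs and small nucleolar RNA hosts was 406 and 386 TPM in mutants 3 and 4 against 723 to 922 TPM in the other embryos. Yolk sac endoderm markers (15 genes, none at 0 in all embryos) summed to 18.0 to 269 TPM in the WT embryos and to 1351, 848, 231 and 166 TPM in the mutants (1 to 4). Transcripts of the mitochondrial genome summed to 46532 to 53876 TPM in WT and 58393 to 65844 TPM in mutants, without overlap. Primitive red cell markers ranged from 15876 TPM (WT 1) to 57735 TPM (mutant 3) and overlapped. Heart muscle markers (10 genes) summed to 1267 to 1814 TPM in WT and 1911 to 3887 TPM in mutants, without overlap. Markers of trophoblast and decidua (14.4 to 31.3 TPM in WT, 18.8 to 337 TPM in mutants), neurons (165 to 384 and 98.1 to 207 TPM), neural progenitors (599 to 835 and 379 to 721 TPM) and trunk mesoderm (143 to 228 and 130 to 233 TPM) overlapped. Their part in the results below was not tested.

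The TOP motif is known to lie at the very start of these transcripts, and 9 members are shown because the results below turn on them: 6 main genes among those with the smallest p in their subunit and direction, and Rps27 with the paralogues Rps27l and Rpl22l1. Each stretch runs 5′ to 3′ on the coding strand around an annotated start (RefSeq, GRCm38.p6), with the longest run of C and T in capitals, or the first such run where another is as long, as in Rps27l.
Rpl13a, chr7:45128722-45128751, minus strand: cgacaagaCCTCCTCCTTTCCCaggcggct
Rpl9, chr5:65391383-65391412, minus strand: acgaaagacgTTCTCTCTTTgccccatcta
Rpl19, chr11:98026944-98026973, plus strand: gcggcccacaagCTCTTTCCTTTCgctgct
Rps18, chr17:33955648-33955677, minus strand: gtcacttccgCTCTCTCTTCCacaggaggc
Rps21, chr2:180257399-180257428, plus strand: ggaggcacgagctaCTTCCTTTCTgcgctc
Rps15a, chr7:118116143-118116172, minus strand: gcccggcccaCTCTCTTTCTgccatcttcc
Rps27, chr3:90213632-90213661, minus strand: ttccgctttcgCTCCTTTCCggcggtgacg
Rps27l, chr9:66946053-66946082, plus strand: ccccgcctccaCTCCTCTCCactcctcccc
Rpl22l1, chr3:28805499-28805528, plus strand: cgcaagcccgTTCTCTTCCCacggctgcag
The runs of Rpl13a, Rps18, Rps27 and Rpl22l1 begin within 2 bases of the annotated start, those of Rpl9, Rpl19 and Rps21 29 to 34 bases after it, and those of Rps15a and Rps27l before it. The runs shown have 9 to 14 bases. Not shown are Rpl22 and Rpl23, also among the smallest p, and the paralogue Rpl7l1. Their longest runs had only 5, 6 and 4 bases.

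Start windows were at hand for 60 of the 80 genes, with 71 starts. An unbroken run of 8 or more C or T, searched from 25 bases before to 50 bases after the start on the coding strand, was present at 49 of 71 starts (69.0%). Among all 32851 starts of the same table it was present at 27.2%. The longest run had a median of 10 bases at member starts and 6 bases at all starts, and the longest of all in a member had 21 bases. The ETS core CCGGAAG, searched on both strands from 250 bases before to 50 bases after the start, was found at 36.6% of member starts and 8.86% of all starts. The Yy1 motif AAGATGGCG was found at 8.45% and 1.40%, and the TATA motif TATAAA at 9.86% and 13.6%. These are matches of letters, and the motifs searched do not contain one another. The 47 genes with such a pyrimidine run at a start had a median log2 fold change, mutant against WT, of -0.043, with 15 higher and 32 lower. The 13 genes with a window and no run had a median of -0.018, with 6 higher and 7 lower. The median of all genes tested was -0.045. Both splits were taken at the TPM scaling only, and the difference between the sets was not tested.

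Together the main genes took about 1 in 7 of all TPM. Their share was 15.9, 14.2, 14.9 and 14.4% of TPM in the WT embryos (1 to 4) and 14.0, 13.5, 15.2 and 14.9% in the mutants (1 to 4). WT 1 was highest and mutant 2 lowest, and the genotypes overlapped. The means were 14.8 ± 0.777% in WT and 14.4 ± 0.797% in mutants (SD, n = 4 each), a difference of -0.435 percentage points that was smaller than either SD. The difference was -0.073 percentage points without WT 1, -0.659 without WT 2, -0.134 without mutant 2, -0.71 without mutant 3 and -1.09 without mutants 3 and 4, and with median-ratio scaling it was 0.073. By reads, all 83 members held 7.55 to 8.64% of the recovered reads in WT and 7.16 to 8.59% in mutants. The subunits kept a nearly fixed proportion. Summed TPM of the large subunit over that of the small subunit was 1.51, 1.49, 1.52 and 1.50 in the WT embryos and 1.50, 1.49, 1.47 and 1.50 in the mutants.

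**Figure D1:**
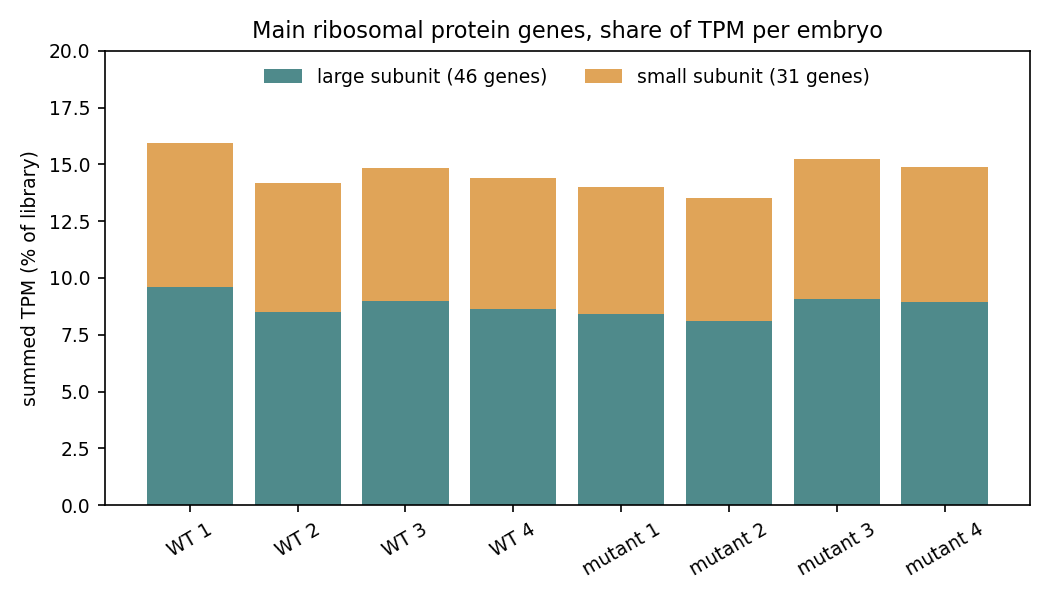
Share of each library's TPM (vertical axis, percent, starting at 0) in the 46 large subunit genes (lower, green) and the 31 small subunit genes (upper, orange) for each of the 8 embryos; each bar is 1 embryo. The whole bars lie between 13.5% (mutant 2) and 15.9% (WT 1), and the genotypes overlap.

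No member was called different between the genotypes. With limma on log2(TPM + 1) over 13596 genes, 0 of the 80 genes passed an adjusted p under 0.05 (0% of all genes called in either direction), and the smallest adjusted p was 0.345, of Rpl19. At an unadjusted p under 0.05, 0 members were higher, where 5.55% of all genes were, and 2 were lower, Rpl13a and Rpl19, where 8% of all genes were. The shares in this fit are no larger than the background. Fitted by limma voom on the recovered reads, 0 were called and 1 was lower at an unadjusted p under 0.05. Of the 12915 genes in the voom fit, 15.7% were at that p, higher and lower together.

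Fold changes were small in both subunits and the intervals were narrow. The median log2 fold change of the 80 genes was -0.038, beside -0.045 for all genes tested, with 27 members higher and 53 lower. The large subunit had a median of -0.039 (13 higher, 33 lower) and the small subunit -0.038 (12 higher, 19 lower), and with median-ratio scaling the splits were 26 to 20 and 17 to 14. The extremes were -0.26 for Rps14 (-0.17 without WT 1) and 0.11 for Rpl22l1 (0.048 without mutant 3). The 95% confidence interval had a median half-width of 0.15 on the log2 scale, against 0.23 for all genes. For all 80 members the interval lay within 1.5-fold in either direction, as it did for 81.5% of all genes. Its lowest bound was 0.695-fold (Rps14) and its highest 1.21-fold (Rps12). The split into higher and lower depended on the scaling: with median-ratio scaling 45 were higher and 35 lower, with a median of 0.0068. It depended on single embryos too, with 42 higher and 38 lower without WT 1, and 10 higher and 70 lower without mutant 3. Without mutants 3 and 4, an alternative chosen after seeing the data, 4 were higher and 76 lower, with a median of -0.090 against 0.027 for all genes.

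**Figure D2:**
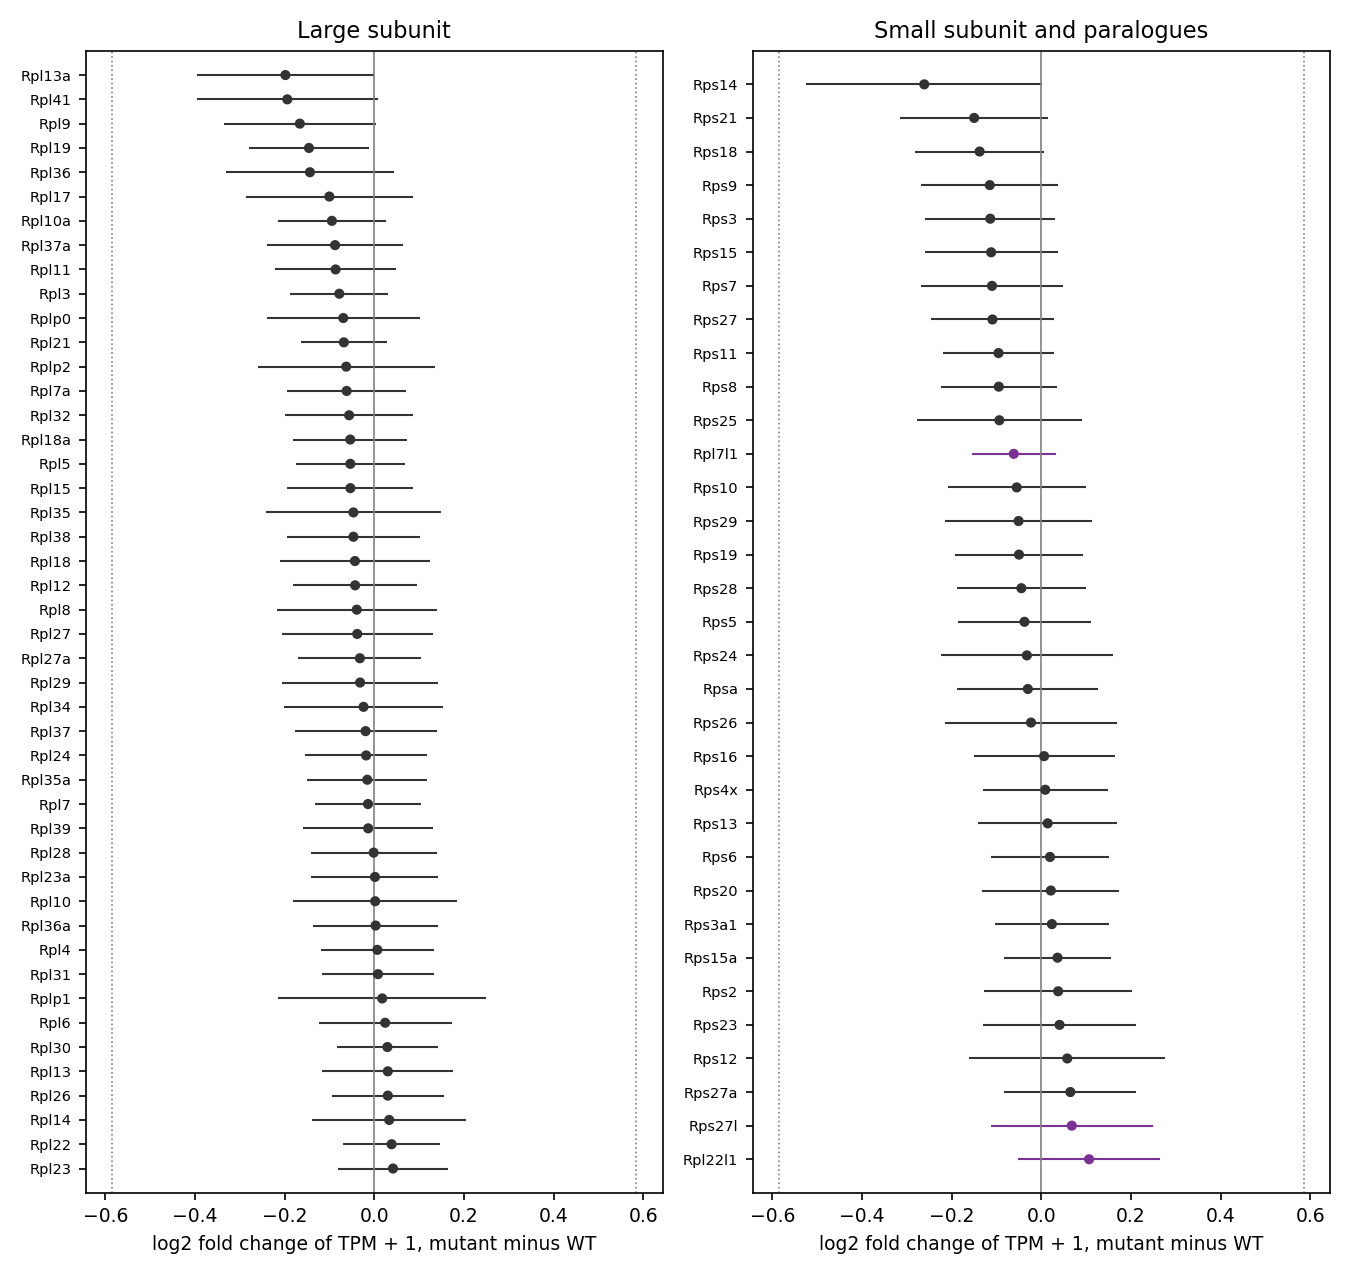
Log2 fold change of TPM + 1, mutant minus WT (horizontal axis), for the 46 large subunit genes (left) and 30 of the 31 small subunit genes with the 3 paralogues in purple (right); points are limma estimates from 4 embryos per genotype, bars are 95% confidence intervals, and dotted lines mark 1.5-fold. All bars lie within the dotted lines, and the estimates run from -0.26 (Rps14) to 0.11 (Rpl22l1).

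Values given for each embryo below follow the order 1 to 4. Among large subunit genes the lowest p belonged to Rpl19, whose protein lies near the peptide exit and bridges the subunits. Rpl19 stood at 4403, 3876, 4244 and 4041 TPM in the WT embryos and 3854, 3606, 3813 and 3686 TPM in the mutants. All mutants were below all WT embryos, if by little, the lowest WT value (WT 2) lying just above the highest mutant value (mutant 1). The means were 4141 ± 231 TPM in WT and 3739.9 ± 114 TPM in mutants (SD, n = 4 each), with a log2 fold change of -0.15 ± 0.06 (SE), unadjusted p = 0.0368 and adjusted p = 0.345 by limma. Rpl19 was the only member whose genotypes did not overlap in TPM with mutants lower, where 3.82% of all genes did so, and 0 members did so with mutants higher, where 3.63% of all genes did.

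Rpl13a, which encodes a large subunit protein also known from interferon-induced silencing of translation and whose introns hold 4 small nucleolar RNAs, stood at 2585, 2076, 2301 and 2239 TPM in the WT embryos and 2231, 1918, 2088 and 1785 TPM in the mutants. WT 1 was highest and mutant 4 lowest, and mutants 1 and 3 lay within the WT range. The log2 fold change was -0.20 ± 0.088 (SE), unadjusted p = 0.0485 and adjusted p = 0.368 by limma. Rpl41, which encodes the smallest ribosomal protein, stood at 5186, 4179, 4660.3 and 4488 TPM in the WT embryos and 4423, 3735, 4339.8 and 3692 TPM in the mutants. Here too WT 1 was highest and mutant 4 lowest, and the genotypes overlapped, with a log2 fold change of -0.19 ± 0.09 (SE), unadjusted p = 0.0578 and adjusted p = 0.38 by limma. Rpl9, a large subunit gene with a near-identical copy discussed below, stood at 1226, 1001, 1126 and 1089 TPM in the WT embryos and 1045, 922, 1064 and 927 TPM in the mutants. Mutants 1 and 3 lay among the WT values, and mutants 2 and 4 below them, with a log2 fold change of -0.17 ± 0.075 (SE).

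Of the higher estimates in the large subunit, those with the smallest p were Rpl22, Rpl23 and Rpl30. Rpl23, whose protein lies at the face between the subunits, stood at 1620.5, 1559.8, 1633 and 1583 TPM in the WT embryos and 1631, 1519, 1691 and 1750.2 TPM in the mutants. Mutant 4 was highest and mutant 2 lowest, with all WT embryos between them. Its log2 fold change of 0.042 ± 0.055 (SE) and those of Rpl22, 0.039 ± 0.048 (SE), and Rpl30, 0.029 ± 0.05 (SE), were smaller than their standard errors.

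In the small subunit the lowest p and the largest difference belonged to Rps14, a platform protein whose gene is lost in a human myelodysplastic anaemia. Rps14 stood at 1764, 1308, 1487 and 1327 TPM in the WT embryos and 1456, 1068, 1239 and 1145 TPM in the mutants. WT 1 was highest and mutant 2 lowest, and mutant 1 lay among the WT embryos. The means were 1471 ± 211 TPM in WT and 1227 ± 168 TPM in mutants (SD, n = 4 each), with a log2 fold change of -0.26 ± 0.12 (SE), unadjusted p = 0.0516 and adjusted p = 0.37 by limma. Without mutants 3 and 4 the log2 fold changes of Rps14, Rpl19, Rpl13a, Rpl41 and Rpl9 were -0.23, -0.15, -0.15, -0.18 and -0.17, none at an unadjusted p under 0.05. The coefficient of variation of Rps14 over the 8 embryos, 16.3%, was the highest of the main genes.

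Rps18, a head protein near the contact with the large subunit, stood at 1484, 1259, 1383 and 1326 TPM in the WT embryos and 1293, 1171, 1297 and 1191 TPM in the mutants. Mutants 2 and 4 were below every WT embryo and mutants 1 and 3 were not, and the log2 fold change was -0.14 ± 0.064 (SE), unadjusted p = 0.0578 and adjusted p = 0.38 by limma. Rps21, a small subunit protein found in eukaryotes only, stood at 1846, 1507, 1631 and 1597 TPM in the WT embryos and 1495, 1372, 1606 and 1452 TPM in the mutants. Its genotypes overlapped through mutant 3, and the log2 fold change was -0.15 ± 0.074 (SE), unadjusted p = 0.0712 and adjusted p = 0.396 by limma.

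Among the higher estimates with the smallest p in the small subunit were Rps27a and Rps15a. Rps27a, made as a fusion with ubiquitin, stood at 1587, 1428, 1478 and 1479.8 TPM in the WT embryos and 1466, 1475, 1737 and 1580.3 TPM in the mutants. Mutant 3 alone was above the WT range, and the genotypes overlapped. The means were 1493 ± 66.9 TPM in WT and 1564 ± 126 TPM in mutants (SD, n = 4 each), with a log2 fold change of 0.065 ± 0.066 (SE), unadjusted p = 0.348 and adjusted p = 0.644 by limma. Rps15a had a log2 fold change of 0.036 ± 0.053 (SE) and overlapped. Mutant 3 is one of the libraries low in the sum of nuclear RNAs and small nucleolar RNA hosts. Without mutants 3 and 4 Rps27a, Rpl22 and Rpl23 had log2 fold changes of -0.021, -0.020 and -0.022.

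By role, no group held a called gene. The stalk proteins Rplp0, Rplp1 and Rplp2 with Rpl12, which draw translation factors to the ribosome, had 1 higher and 3 lower estimates (2 and 2 with median-ratio scaling). Rplp0 stood at 5811, 5208, 5721 and 5273 TPM in the WT embryos and 5017, 4782, 5523 and 5689 TPM in the mutants, the genotypes overlapping. Rpl5 and Rpl11, which with the 5S ribosomal RNA restrain Mdm2 when assembly fails, had log2 fold changes of -0.053 and -0.086. The 9 genes around the peptide exit tunnel split into 5 higher and 4 lower, with Rpl19 as the single gene at an unadjusted p under 0.05. The 12 genes of the mRNA channel and head of the small subunit split into 5 higher and 7 lower, from -0.14 (Rps18) to 0.058 (Rps12). Of the 7 platform and decoding genes, 3 were higher and 4 lower. With median-ratio scaling these splits were 6 to 3, 6 to 6 and 6 to 1. Rps6, the target of the S6 kinases, stood at 2704, 2512, 2544 and 2554 TPM in the WT embryos and 2436, 2535, 2774 and 2718 TPM in the mutants, and its log2 fold change was 0.019 ± 0.059 (SE).

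Genes known from disease or mouse mutants gave 0 calls. Of 18 genes linked to Diamond-Blackfan anaemia 3 were higher and 15 lower, with a median of -0.046, beside -0.045 for all genes tested, and with median-ratio scaling 9 were higher and 9 lower. Of 7 genes with patterning or pigment mutants in mice 1 was higher and 6 lower, with a median of -0.032, and with median-ratio scaling 4 were higher and 3 lower. Rpl38, which is mutated in tail-short mice, stood at 2101, 1817, 1856 and 1859.9 TPM in the WT embryos and 1773, 1738, 1987 and 1891 TPM in the mutants, the genotypes overlapping. The 4 members on the X chromosome (Rpl10, Rpl36a, Rpl39 and Rps4x) lay between -0.014 and 0.0088. Main genes whose introns hold small nucleolar RNAs numbered 30, with 58 such RNAs, and had 13 higher and 17 lower estimates (median -0.025). The 47 other main genes had 12 higher and 35 lower (median -0.043). With median-ratio scaling the splits were 18 to 12 and 25 to 22.

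Levels of the main genes varied jointly between embryos of both genotypes. Over the 8 embryos 75, 11, 47 and 23 of the 77 main genes lay above their own mean in the WT embryos (1 to 4), and 15, 3, 68 and 49 in the mutants (1 to 4). WT 1 and mutant 3 were high for most genes, and WT 2, mutant 1 and mutant 2 low. The coefficient of variation over embryos had a median of 6.46% for main genes, from 3.42% (Rps3a1) to 16.3% (Rps14), beside 11.2% for all genes kept. Subtracting each embryo's median deviation left 51.2% of the squared deviations of the main genes. The remainder was widest in mutant 4, where the SD of the genes' log2 deviations was 0.108, against 0.037 to 0.074 in the other 7 embryos.

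In mutant 4 the members parted from each other. Rpl13a, Rpl17, Rps25, Rps24, Rpl41 and Rps14 lay at -0.26, -0.24, -0.23, -0.23, -0.22 and -0.22 relative to their means on the log2 scale, whereas Rps26 and Rplp1 lay at 0.19 each. Mutant 4 is also a library low in the sum of nuclear RNAs and small nucleolar RNA hosts. So is mutant 3, where the SD of the genes' log2 deviations was 0.061. A link between the sum and the spread was not tested. With each library's median main gene subtracted, 3 members had no overlap with mutants lower (Rps15, Rps21 and Rps9), where 0.831% of all genes did, and 0 with mutants higher, where 2.44% of all genes did. Rps15, a head protein needed for export of the small subunit from the nucleus, stood at 4530.3, 4006, 4127 and 3982 TPM in the WT embryos and 3786, 3601, 4061 and 3950.3 TPM in the mutants, and in TPM its genotypes overlapped through mutant 3. Rps9 stood at 1951, 1694, 1822 and 1696 TPM in the WT embryos and 1598, 1527, 1733 and 1757 TPM in the mutants, with a log2 fold change of -0.11 ± 0.068 (SE). These 3 genes were picked out by their values, and the subtracted median is itself made of main genes.

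**Figure D3:**
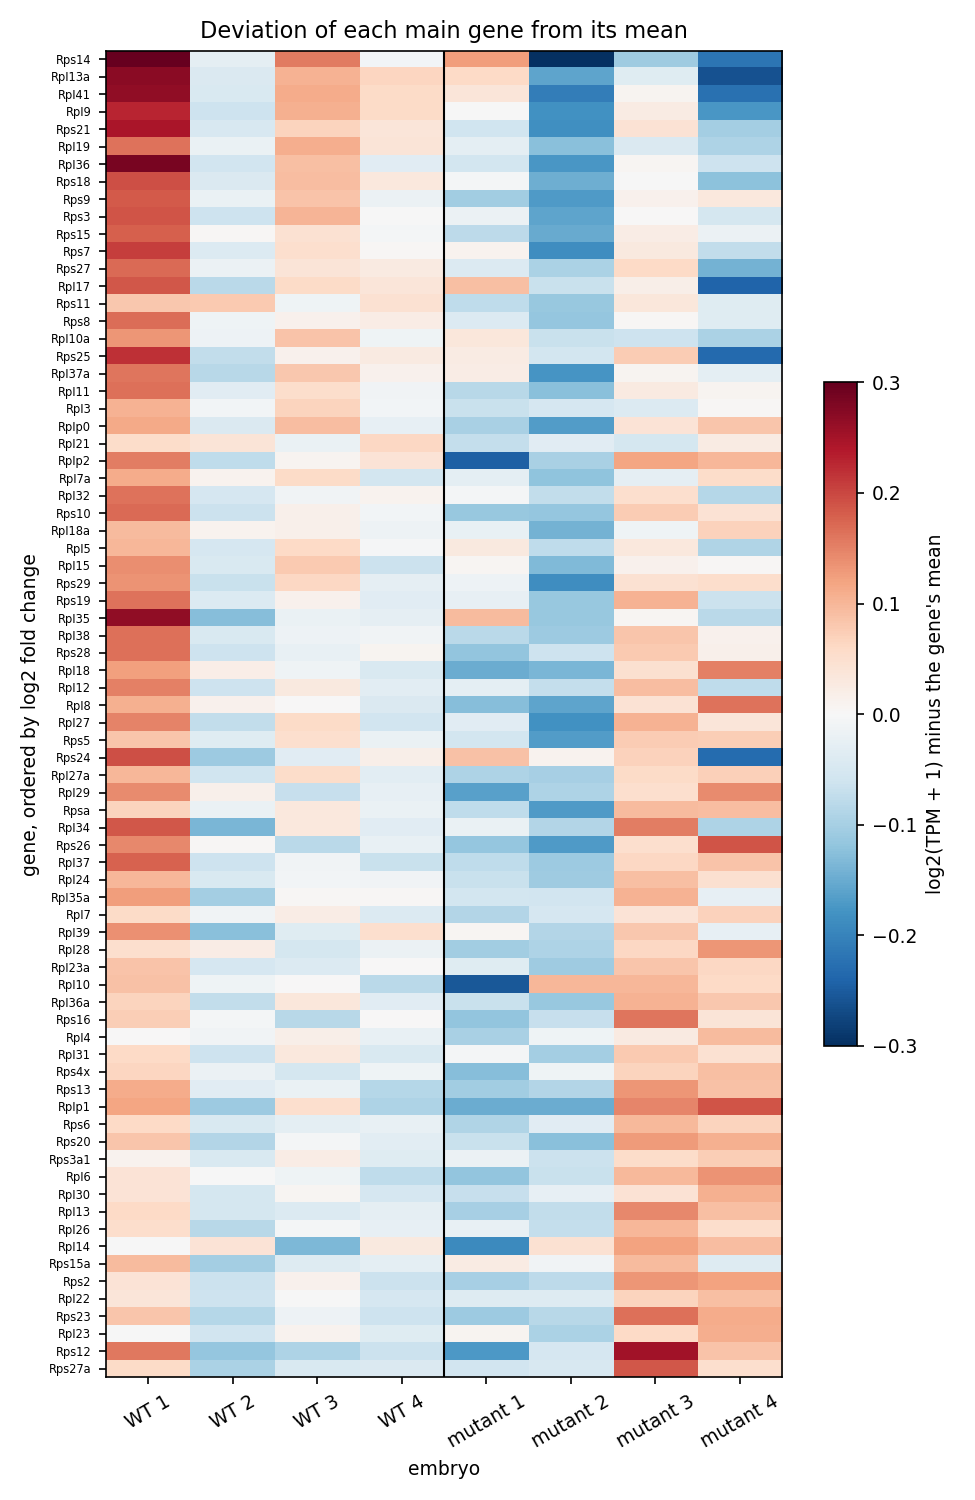
Log2(TPM + 1) of 76 of the 77 main genes (rows, ordered by log2 fold change) minus the gene's mean over the 8 embryos (columns, WT left of the line); red is above the mean, blue below, and the colour scale ends at 0.3 either way. WT 1 is red in 74 of 76 rows and mutant 2 in 3, and mutant 4 holds both strong red and strong blue rows.

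The level of each gene depended on which length its reads were divided by. The deposited TPM follow the length of all annotated exons merged (median 1781 bases for main genes), while the principal messenger RNAs have a median of 774 bases. The length ratio ran from 1.00 (Rplp1, Rpl36 and Rps3a1) to 7.18 (Rpl35a). Per kilobase of merged exons, main genes ranged 27.6-fold, from 115 reads per kilobase per M reads for Rps15a to 3171 for Rplp1. The upper quartile was 2.26 times the lower. Per kilobase of principal messenger RNA the quartiles differed by 1.67 times, and the highest were Rplp1 (3171), Rpl41 (3017), Rps2 (2808), Rps12 (2488) and Rplp0 (2128). On that scale the small subunit median was 1413 and the large subunit median 1118. Rps15a was lowest on both scales (141 per kilobase of messenger RNA), and its principal transcript is annotated at 5130 bases. These lengths are the same in every embryo and do not enter the fold changes.

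**Figure D4:**
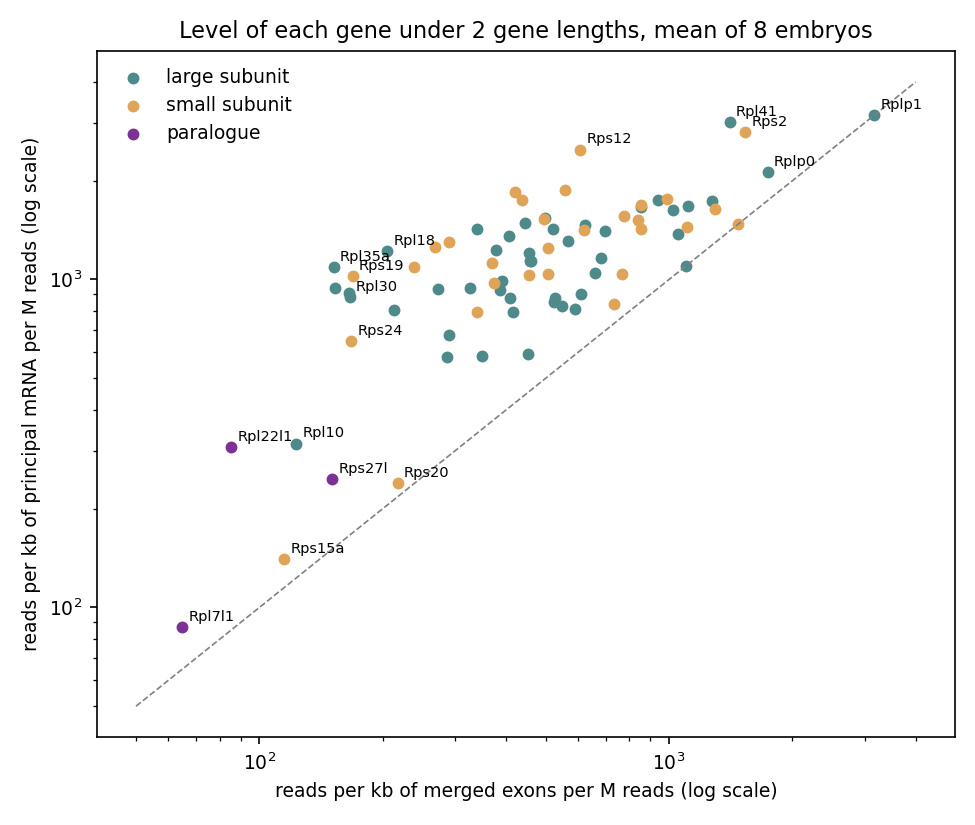
Mean level over 8 embryos of 76 of the 77 main genes and 3 paralogues in reads per kilobase of merged exons per M reads (horizontal, log scale) against reads per kilobase of principal messenger RNA per M reads (vertical, log scale); each point is 1 gene and the dashed line marks equality. Most genes lie above the line, Rplp1 (at 3171), Rpl36 and Rps3a1 on it, and Rpl7l1 and Rps15a lie lowest on the vertical axis.

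Some members share their sequence with other genes in the table, so that reads could be split between them. Near-identical transcripts elsewhere in the genome (at least 95% identity over 80% of the shorter transcript, GENCODE M21) were found in the table for 6 of the 80 members, and for 4 the copy reached 10% or more of the member's TPM. Rpl10, whose protein joins the large subunit in its last maturation steps, is the clearest case. Its copy Rpl10-ps3 on chromosome 9 was identical over 740 aligned bases and listed at 3584 to 4232 TPM, while Rpl10 was at 317 to 406 TPM. The copy took 79.5% of the joint reads in WT and 79.5% in mutants. Both together stood at 1229 ± 57.8 reads per M reads of the library in WT and 1233 ± 110 in mutants (SD, n = 4 each). Per kilobase of messenger RNA the pair reached 1538 in WT, against 316 for Rpl10 alone over all embryos, so the low rank of Rpl10 holds only when its copy is set aside. Rpl35 had the copy Gm2000 (99.6% identity, 212 to 531 TPM) and Rpl9 had Rpl9-ps6 (99.9%, 69.5 to 148 TPM). Rpl9 with its copy stood at 1132 ± 104 reads per M reads in WT and 1014 ± 103 in mutants, overlapping as Rpl9 alone did.

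The paralogues stood below their partners in every embryo. Rpl7l1, related to Rpl7, stood at 211, 200.4, 210.3 and 197 TPM in the WT embryos and 195, 198, 192 and 199 TPM in the mutants, and its ratio to Rpl7 was 11.7 ± 0.140% of TPM in WT and 11.3 ± 0.593% in mutants (SD, n = 4 each). Rpl22l1, which can replace Rpl22 in the ribosome, stood at 279, 239, 253 and 245 TPM in the WT embryos and 266, 257, 308 and 262 TPM in the mutants. Mutant 3 was highest and WT 2 lowest. Its ratio to Rpl22 was 54.4 ± 2.13% and 57.1 ± 4.30%. The exact two-sided permutation p-values of these ratios were 0.371 for Rpl7l1 and 0.343 for Rpl22l1, both 0.371 after adjustment over 4 ratios.

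Rps27l, a paralogue of Rps27 known as a p53 target, stood at 517, 417, 455 and 425 TPM in the WT embryos and 475, 463, 527 and 434 TPM in the mutants. Rps27 stood at 1284, 1129, 1173 and 1164 TPM in the WT embryos and 1110.2, 1070.2, 1191 and 1035 TPM in the mutants. The level of Rps27l overlapped between genotypes (log2 fold change 0.068 ± 0.081 (SE)), and so did that of Rps27 (-0.11 ± 0.061 (SE)). Their ratio did not overlap. Rps27l was at 40.2, 36.9, 38.8 and 36.5% of the TPM of Rps27 in the WT embryos and at 42.8, 43.3, 44.2 and 41.9% in the mutants. The means were 38.1 ± 1.72% and 43.1 ± 0.971% (SD, n = 4 each), and the exact two-sided permutation p was 0.0286, the smallest that 4 against 4 allows, and 0.114 after adjustment over the 4 ratios. Leaving out 1 embryo at a time gave differences of 4.42 to 5.66 percentage points, and leaving out mutants 3 and 4 gave 4.94.

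Reads of Rps27 could be shared with Rps27rt, a gene on chromosome 9 that is identical to it over 341 aligned bases and was listed at 444 to 742 TPM. Rps27rt held 12.7 to 14.4% of the joint reads in WT 1 to 4 and mutants 2 and 3, and 19.3 and 20.3% in mutants 1 and 4. With the reads of both added, Rps27l was at 27.1, 25.2, 26.1 and 24.4% in the WT embryos and 27.0, 29.5, 30.1 and 26.1% in the mutants, in the same order. On this measure mutants 2 and 3 lay above every WT embryo, while mutants 1 and 4 lay within the WT range, so that the genotypes overlapped, with an exact two-sided permutation p of 0.114 (adjusted 0.229). The joint count was added after the ratio had been seen.

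**Figure D5:**
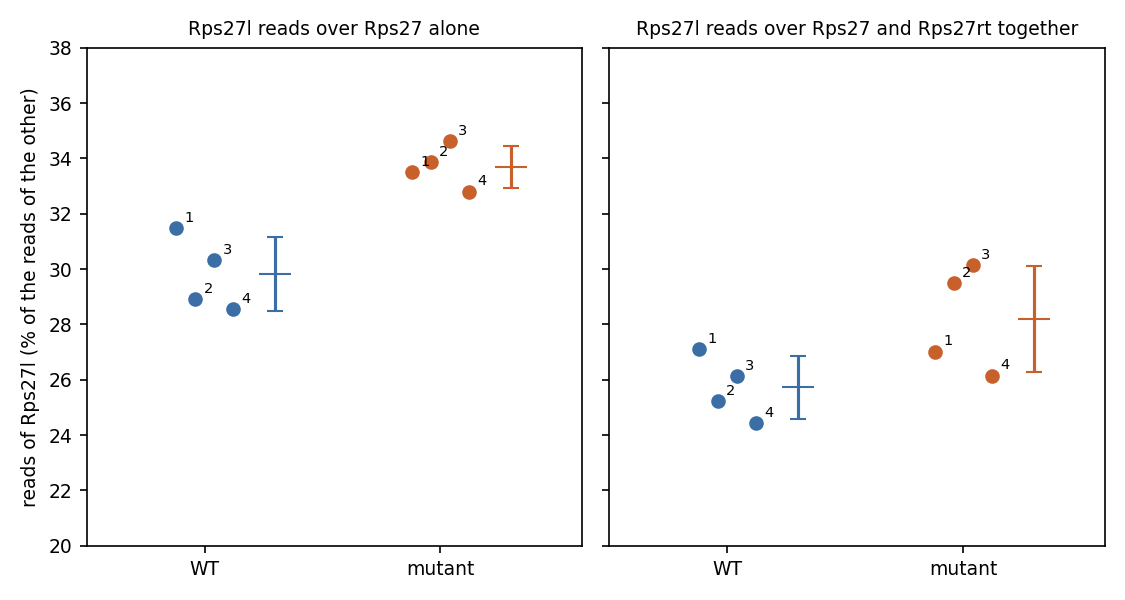
Reads of Rps27l as a percentage of the reads of Rps27 (left) and of Rps27 and Rps27rt together (right) in WT (blue) and mutants (orange); numbered points are embryos, and bars beside them are means ± SD of 4 embryos. The vertical axis starts at 20%. On the left the groups do not overlap (28.6 to 31.5% against 32.8 to 34.6%), and on the right mutants 1 and 4 lie within the WT range.

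Ribosomal proteins whose symbols fall outside the naming rule were looked at beside the set. Rack1, Fau and Rpl36al had log2 fold changes of -0.16 ± 0.075 (SE), -0.098 ± 0.077 (SE) and -0.0057 ± 0.056 (SE), and none was called. Rack1, a scaffold on the small subunit head, stood at 1258, 1079, 1168 and 1049.8 TPM in the WT embryos and 1131, 942, 1010.4 and 985 TPM in the mutants. Among other genes that share the TOP motif (19 genes, Fau and Rack1 among them) 7 were higher and 12 lower (12 and 7 with median-ratio scaling). Of the 19, 2 were lower at an unadjusted p under 0.05, Eif3h (-0.19) and Naca (-0.12), where 8% of all genes were. With median-ratio scaling 0 were lower at that p, after rescaling without mitochondrial genome genes 1, and without mutants 3 and 4 there were 0.

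Genes that build ribosomes gave 0 calls as well. Of 50 assembly factors 15 were higher and 35 lower (31 and 19 with median-ratio scaling). At an unadjusted p under 0.05, 3 of the 50 were lower (Nle1, Lsg1 and Mphosph10), where 8% of all genes were. Of 14 RNA polymerase I genes 12 were kept, with 3 higher and 9 lower and a median of -0.12. Those at an unadjusted p under 0.05 were all lower, 3 of the 12 where 8% of all genes were. They were Taf1b, a subunit of the selectivity factor, Polr1c, a polymerase subunit, and Ubtf, the upstream binding factor, at -0.25, -0.15 and -0.12. Taf1b stood at 30.1, 29.4, 30 and 28.5 TPM in the WT embryos and 26.4, 25.9, 22.7 and 23.7 TPM in the mutants, without overlap, unadjusted p = 0.00355 and adjusted p = 0.281 by limma. Of 14 growth control genes around mTOR and Myc 10 were higher and 4 lower, with Mlst8 alone lower at an unadjusted p under 0.05. Of 24 initiation factors 8 were higher and 16 lower, with Eif1 alone lower at an unadjusted p under 0.05. Both single genes stand beside 8% of all genes lower at that p. Of 10 chaperones and importers of ribosomal proteins 8 were higher and 2 lower, and of 8 p53 pathway genes 2 were higher and 6 lower. Median-ratio scaling turned the split of the initiation factors to 17 higher and 7 lower, gave 3 higher and 5 lower for the p53 genes and 11 higher and 3 lower for growth control, and left those of the polymerase I genes and the chaperones in place. The genes lower at an unadjusted p under 0.05 changed with the setting. Of the polymerase I genes there was 1 with median-ratio scaling, 1 after rescaling without mitochondrial genome genes and 1 without mutants 3 and 4. In the same order there were 4, 1 and 0 of the assembly factors, 1, 0 and 0 of the growth control genes, and 0, 1 and 0 of the initiation factors. Of the initiation factors 1 was higher at that p with median-ratio scaling and 1 without mutants 3 and 4. Of all genes, 15.9, 12.4 and 12.6% were at that p in either direction, in the same order.

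The ribosomal proteins of mitochondria, which translate the mitochondrial genome and share no gene with the cytosolic set, are given for comparison. Of 78 such genes 6 were higher and 72 lower, with a median of -0.085 (21 higher and 57 lower with median-ratio scaling). At an unadjusted p under 0.05, 20 were lower (8% of all genes were) and 0 higher, and 14 had no overlap with mutants lower (3.82% of all genes had none). With median-ratio scaling 10 of the 78 were lower at that p, after rescaling without mitochondrial genome genes 16, and without mutants 3 and 4 there were 7. Of all genes, 15.9, 12.4 and 12.6% were at that p in the same order, higher and lower together. None was called, and the smallest adjusted p by limma was 0.281. The difference between the mitochondrial and cytosolic sets was not tested. It stands beside the higher mitochondrial genome transcripts in mutants given above.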

How the data were processed

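RNA of 8 whole embryos was sequenced on a NovaSeq instrument after TruSeq library preparation, per the labels' protocols. The authors deposited 1 table of TPM per gene symbol. The build was GRCm38 (mm10), per the submitters' processing notes. For the aligner, the counter, its annotation and strand setting: not given in the sources used here. All value columns matched a sample (0 left over).

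Genes with at least 1 TPM in at least 4 embryos were kept. Mutants were set against WT on log2(TPM + 1), a pseudocount of 1, by limma 3.58.1 (R 4.3.3) with a trended prior and no term but genotype. Tests were two-sided, with Benjamini-Hochberg adjustment over 13596 genes. A gene was called at an adjusted p under 0.05. Fold changes are on the TPM + 1 scale. Ratios of paralogues were compared by exact permutation (SciPy 1.17.1).

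Whole reads (within 0.02 reads in all 8 libraries) were recovered from TPM steps with GENCODE M21 merged exon lengths, giving libraries of 57.7 to 59.1 M reads. Transcript copies were sought with BLAST 2.17.0. Read recovery and the limma fit were tested on simulated data.

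The members, lists and rules were chosen with earlier results of these data known. Named genes are the paralogues and partners, the 3 smallest p in each direction and subunit, the 3 highest and 2 lowest levels per subunit, and up to 3 of each list. A gene the rule names, and another from a list, are not reported here. Other genes were named after their values were seen. As litters are not given, p-values measure the spread between these embryos. Alternatives changed the pseudocount, filter, scaling, prior, weights, replicate block and embryos.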

Additional observations from a re-analysis of the deposited data

Results flagged for a closer look

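In 1 of 66 groups of 4 embryos tested, a single embryo lay far from the rest of its group: Rpl10 was at 316.9 TPM in mutant 1, while mutants 2 to 4 lay between 394 and 406 TPM. Chance flags about 1 in 20 such groups. The near-identical copy Rpl10-ps3 was also at its lowest in mutant 1 (3584 TPM).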

How the results depend on the processing

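The number of members called was 0 under every alternative run. The 2 members lower at an unadjusted p under 0.05 became 0 with no filter, with median-ratio scaling and after rescaling without mitochondrial genome genes, 1 after rescaling without ribosomal protein genes, with no trend, with array weights and with limma voom on recovered reads, and 5 without mutants 3 and 4. Leaving out 1 embryo at a time gave 0 to 8. It was 8 without WT 2, 7 without mutant 1, 3 without mutant 3, 1 without WT 4, and 0 without WT 1, WT 3, mutant 2 or mutant 4. With array weights 1 member was higher at that p. Of all genes, 13.5% were at that p in either direction in the main fit, and this share moved with the setting too. It was 8.92% without WT 2, 19.2% without mutant 1, 12.6% without mutants 3 and 4 and 25.8% with array weights. With 1 embryo left out at a time it ran from 8.52% (without WT 1) to 22.8% (without mutant 2). The cause of these shifts was not tested. With array weights 45 members were higher and 35 lower.

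Replicate numbers are shared between genotypes by label only. The replicate block moved the count of members lower at an unadjusted p under 0.05 from 2 to 5, with 0 called. The share of all genes at that p, in either direction, was 14.0% with the block and 13.5% in the main fit. Over the genes kept, the deviations of same-numbered embryos from their group means correlated at -0.062, 0.040, -0.19 and -0.25. The numbers were therefore not taken as pairs.

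Small log2 fold changes changed sign. Without mutants 3 and 4 they were -0.076 for Rpl10, -0.020 for Rpl22, -0.022 for Rpl23, -0.031 for Rpl30, -0.14 for Rplp1, -0.071 for Rps2, 0.033 for Rps24, -0.021 for Rps27a and -0.029 for Rps3a1. Median-ratio scaling gave 0.029 for Rpl35a, 0.031 for Rpl7 and 0.012 for Rps24, rescaling without mitochondrial genome genes 0.0020 for Rpl35a and 0.0035 for Rpl7, array weights 0.017 for Rpl35a and 0.020 for Rpl7, and rescaling without ribosomal protein genes -0.0052 for Rpl10. Leaving out 1 embryo at a time gave -0.031 to 0.087 for Rpl10, -0.0016 to 0.057 for Rpl30, -0.053 to 0.024 for Rpl35a, -0.039 to 0.013 for Rpl7, -0.042 to 0.070 for Rplp1, -0.00051 to 0.077 for Rps2 and -0.074 to 0.039 for Rps24. Of the alternative values, 567 kept direction and side of the threshold (or stayed within the allowed range for counts), 17 counts moved and 36 values reversed.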
